A study of Mus musculus with 2 samples.

Results

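The genes described here are 10 members of the Notch pathway, taken by exact symbol from the 32285 genes of the feature table that both libraries share. They comprise 4 ligands (Dll1, Dll4, Jag1 and Jag2), the receptors Notch1 and Notch4, and 4 target genes (Hes1, Hey1, Hey2 and Heyl). They were measured by single-cell RNA sequencing (scRNA-seq) of liver endothelial cells (ECs), which had been enriched from mouse liver with magnetic beads against the endothelial surface protein CD146. The study compared Maf LSEC-KO mice, in which the transcription factor gene Maf is deleted in liver sinusoidal endothelial cells (LSECs), with littermate controls. The Maf LSEC-KO animals carried Clec4g-iCre tg/wt together with Maf fl/fl, and the controls were Clec4g-iCre wt/wt with Maf fl/fl or Maf fl/wt. The Clec4g promoter drives the recombinase selectively in LSECs from late fetal life, so large-vessel ECs, which CD146 also selects, are not its main target. Each group was 1 library made from a pool of 3 mice. The study kept its animals on a standard diet and worked with both sexes at 3 and 6 months of age, but which of these were pooled is not given in the sources used here. With 1 library a group there is no replicate, so no difference between the groups carries a test, and all intervals below are 95% intervals that cover counting error only.

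Notch signalling passes between touching cells. A Delta-like or Jagged ligand on one cell binds a Notch receptor on its neighbour, the receptor is cleaved, and its intracellular domain enters the nucleus, where it joins the DNA-binding protein RBPJ and switches on Hes and Hey repressor genes. In blood vessels the pathway is known for setting arterial identity and for restraining the sprouting of tip cells, and in the liver sinusoid its activity is known to affect LSEC differentiation.

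The control library held 5664 barcodes with 47681895 UMIs (unique molecular identifiers, each standing for 1 captured transcript), and the Maf LSEC-KO library 7091 barcodes with 89872764 UMIs. The libraries shared 10 barcode sequences. After filters, 4262 control and 4433 Maf LSEC-KO ECs remained, of which 4101 and 3251 had no UMI of the large-vessel gene Vwf and are called LSECs here. The median LSEC held 8395 UMIs in control and 13871 in Maf LSEC-KO. Maf itself stood at a counts-per-million (CPM) level of 3468 in control LSECs and at 124 CPM in Maf LSEC-KO LSECs, where 21.4% of the cells still held a Maf UMI against 99.4% in control. Of the markers that define LSECs, Stab2 was at 1635 CPM in control and 177 CPM in Maf LSEC-KO, Clec4g at 3015 and 1503 CPM, and Lyve1 at 722 and 399 CPM, so the LSECs of the Maf LSEC-KO library carried part of their defining markers at a lower level. Several features moved together with the groups. Cells with a Vwf UMI made up 3.78% of control and 26.7% of Maf LSEC-KO ECs, and cycling cells 3.15% and 32.3% of LSECs. Cells with at least 2 marker genes of another cell type made up 10.5% and 26.9% of LSECs. These shares were not thinned to equal depth. Cells with stellate genes numbered 210 among the control and 128 among the Maf LSEC-KO LSECs. Joint clusters with few UMIs, led by haemoglobin and hepatocyte genes, held 34.8% of control LSECs but 2.83% of Maf LSEC-KO LSECs. They held 53.6% of the most portal control class described below. The haemoglobin gene Hbb-bs was at 639 CPM in control and 5.65 CPM in Maf LSEC-KO LSECs. Without these clusters, an alternative chosen after seeing the data, the log2 ratios between the libraries were 0.45 for Dll4, 0.49 for Hes1, −1.22 for Dll1, 3.88 for Jag2 and 1.49 for Hey1. Their part in the differences between the libraries was not tested beyond the values given beside each result.

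The promoters of the members on which the results turn are shown first, because they are the sequences through which transcription of these genes starts. RefSeq promoters on GRCm38.p6 (the mm10 build) were found for 7 of the 10 members, in 8 promoters, and not for Hes1, Hey1 or Heyl. The 250 bases before the RefSeq start were searched on both strands for TGGGAA, the core that RBPJ binds, and for TGCTGA, the core of the Maf recognition element. Dll4 is shown as the ligand with the most UMIs, Jag2 and Dll1 as the ligands that stood at least 2-fold apart between the LSECs of both libraries, and Hey2 because it was the only member with a match. Capitals mark that match.
Dll4, chr2:119325534-119325783, plus strand: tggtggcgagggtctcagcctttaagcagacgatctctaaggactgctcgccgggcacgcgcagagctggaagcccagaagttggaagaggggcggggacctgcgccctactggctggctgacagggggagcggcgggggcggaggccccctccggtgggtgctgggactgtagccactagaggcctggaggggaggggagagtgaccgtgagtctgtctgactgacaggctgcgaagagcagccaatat
Jag2, chr12:112929496-112929745, minus strand: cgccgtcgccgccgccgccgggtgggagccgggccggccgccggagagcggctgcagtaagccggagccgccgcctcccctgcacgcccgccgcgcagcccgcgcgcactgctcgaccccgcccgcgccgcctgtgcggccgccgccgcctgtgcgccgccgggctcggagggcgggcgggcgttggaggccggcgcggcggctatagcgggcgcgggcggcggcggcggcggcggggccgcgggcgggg
Dll1, chr17:15376933-15377182, minus strand: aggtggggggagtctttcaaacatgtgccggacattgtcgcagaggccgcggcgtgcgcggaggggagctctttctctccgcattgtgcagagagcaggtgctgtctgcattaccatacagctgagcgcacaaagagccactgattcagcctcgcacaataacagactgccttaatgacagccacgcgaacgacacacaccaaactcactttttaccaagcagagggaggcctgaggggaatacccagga
Hey2, chr10:30842784-30843033, minus strand: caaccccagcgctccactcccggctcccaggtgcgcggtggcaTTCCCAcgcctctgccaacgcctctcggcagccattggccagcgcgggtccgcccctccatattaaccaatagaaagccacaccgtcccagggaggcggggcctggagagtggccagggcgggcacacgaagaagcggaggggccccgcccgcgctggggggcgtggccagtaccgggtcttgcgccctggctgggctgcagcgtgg
The match in the Hey2 promoter began 207 bases before the start and reads TTCCCA on the gene's strand, the reverse of TGGGAA. Among all 32851 promoters, 21.6% held TGGGAA and 16.1% held TGCTGA, which was found in 0 of the 8 member promoters. The absence of a match says only that these letters are not in this window. The Jag2 promoter had the highest GC content of the members at 87.2%, against 56% for the Dll1 promoter shown and a median of 52.4% over all promoters. The Jag2 stretch lies before the RefSeq start but inside the gene as GENCODE places it, with a start at chr12:112929776. It may therefore hold transcribed bases.

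In LSECs the 10 members differed between the libraries in both directions. The ligand Jag2 and the target Hey1 were at least 2-fold higher in Maf LSEC-KO and the ligand Dll1 was at least 2-fold lower, while Dll4, Notch4 and Hes1 were higher by smaller factors, Notch1 was lower by a smaller factor, and Jag1 was near equal. Hey2 and Heyl had under 50 UMIs over both libraries and were given no direction. Thus 2 of the 8 members with enough UMIs were called higher, where 14.9% of the 12942 genes with enough UMIs were called higher, and 1 was called lower, where 5.59% were. Jag2 reached the minimum of 50 UMIs through the Maf LSEC-KO library alone, here and in every comparison of the libraries below, so these counts are descriptions. The median log2 ratio of the 8 members was 0.44, beside 0.16 for all genes tested. Other ways of scaling the libraries shifted every log2 ratio by −0.16 to −0.19, and the directions given here held under them except that of Jag1.

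Dll4, the Delta-like ligand of arterial and tip endothelium (chr2:119325784-119335962, plus strand), was at 127 CPM (4185 UMIs, interval 124 to 131) in control LSECs and at 174 CPM (7038 UMIs, 170 to 179) in Maf LSEC-KO LSECs. The level was 1.37-fold higher in Maf LSEC-KO (1.32 to 1.42), and the log2 ratio lay between 0.27 and 0.59 over all alternatives tried. At least 1 Dll4 UMI was found in 50.5% of control and 68.9% of Maf LSEC-KO LSECs. After every cell was thinned to 2700 UMIs of all genes, which left 3695 control and 3064 Maf LSEC-KO LSECs, the shares were 25.2% and 29.4%, a narrower gap at equal total UMIs. That total includes mitochondrial and ribosomal protein genes, which CPM leave out. Outside those genes lay 32864733 of 37358862 UMIs in control LSECs and 40346549 of 52158686 in Maf LSEC-KO LSECs. Thinned shares, here and below, and CPM ratios therefore use unlike bases. Droplets also hold free RNA. In the same libraries 21.3% of the 47 control B cell-like cells (median 7540 UMIs) and 12.8% of the 39 Maf LSEC-KO ones (median 5977 UMIs) held a Dll4 UMI, and their Dll4 levels were 68.9 and 56.5 CPM.

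Dll1, a further Delta-like ligand (chr17:15367354-15376872, minus strand), stood at 18.0 CPM (593 UMIs, interval 16.6 to 19.6) in the LSECs of the control library and at 8.25 CPM (333 UMIs, 7.39 to 9.19) in those of the Maf LSEC-KO library. Its level was 2.19-fold lower in Maf LSEC-KO (1.91 to 2.51). The thinned share of LSECs with a Dll1 UMI was 4.22% in control and 1.76% in Maf LSEC-KO. Dll1 was no longer 2-fold apart when Vwf-positive cells were kept (log2 ratio −0.75) or when cycling LSECs, at 3.15% and 32.3% of the LSECs, were left out (log2 ratio −0.80). It was lower in Maf LSEC-KO in each of these settings.

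Jag2, a Jagged ligand (chr12:112907819-112929776, minus strand), was nearly absent from control LSECs, with 18 UMIs in 4101 cells or 0.548 CPM (interval 0.325 to 0.866). In Maf LSEC-KO LSECs it had 300 UMIs in 3251 cells, or 7.44 CPM (6.62 to 8.33). The ratio was 13.6-fold (8.44 to 23.2), the largest among the members with enough UMIs. A Jag2 UMI was found in 0.108% of control and 2.12% of Maf LSEC-KO LSECs after thinning. In the Maf LSEC-KO library Jag2 was at 2.16 CPM (5 UMIs, 0.702 to 5.04) in macrophage-like cells, below the LSEC level, but at 6.80 CPM (2 UMIs, 0.824 to 24.6) in 60 T/NK cell-like cells, an interval that contains it (a Jag2 UMI in 3.33% of these cells, median 5836.5 UMIs). Of the 300 UMIs, 43 came from a cluster led by stellate and lymphatic genes that is described with the clusters.

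Jag1, the Jagged ligand of large vessels and bile ducts (chr2:137081456-137116644, minus strand), was at 15.6 CPM (514 UMIs) in control and 15.9 CPM (642 UMIs) in Maf LSEC-KO LSECs. The log2 ratio was 0.02 (−0.14 to 0.20) and changed sign with the scaling, from −0.16 with the UMIs of all genes. In ECs with a Vwf UMI, Jag1 was far higher, at 184 CPM (318 UMIs) in 161 control cells and 68.4 CPM (1195 UMIs) in 1182 Maf LSEC-KO cells. It was thus the ligand that separated the Vwf-positive ECs from the LSECs most clearly, and its level in Vwf-positive cells was lower in the Maf LSEC-KO library, where such cells were more frequent.

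Among the receptors, Notch1 (chr2:26457903-26516663, minus strand), the main endothelial Notch receptor, was at 373 CPM (12254 UMIs) in control LSECs and at 314 CPM (12664 UMIs) in Maf LSEC-KO LSECs. Its level was 1.19-fold lower in Maf LSEC-KO (1.16 to 1.22), and the thinned share of LSECs with a Notch1 UMI was 56.1% in control and 45.9% in Maf LSEC-KO. Notch4, a receptor largely restricted to endothelium (chr17:34564268-34588503, plus strand), was at 67.8 CPM (2228 UMIs) in control and 95.5 CPM (3853 UMIs) in Maf LSEC-KO LSECs. This was 1.41-fold higher in Maf LSEC-KO (1.34 to 1.49). The 2 receptors therefore differed in opposite directions, each by less than 1.5-fold. Notch2, which is no member, was sparse in both libraries at 3.56 CPM (117 UMIs) and 2.97 CPM (120 UMIs). Notch3, the receptor of mural cells, had 0 UMIs in control LSECs, which allows up to 0.0913 CPM by a floor of 3 counts and 0.112 CPM by the exact interval, and in Maf LSEC-KO LSECs 22 UMIs (0.545 CPM). Rbpj, the DNA-binding partner of all Notch receptors, was at 62.0 and 59.4 CPM.

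Of the target genes, Hes1 (chr16:30064384-30067796, plus strand), the most widely used Notch target and a transcriptional repressor, was at 302 CPM (9921 UMIs) in control LSECs and at 405 CPM (16352 UMIs) in Maf LSEC-KO LSECs. The level was 1.34-fold higher in Maf LSEC-KO (1.31 to 1.38), and the thinned share of cells with a Hes1 UMI was 41.5% in control and 47.9% in Maf LSEC-KO. The immediate early genes Egr1 and Fos, which respond to cell isolation, were also higher in Maf LSEC-KO LSECs, at 311 against 82.9 CPM and 266 against 96.0 CPM; their part in the Hes1 level was not tested. Hey1, the arterial Hes-related repressor (chr3:8663359-8667256, minus strand), was at 2.13 CPM in the control library (70 UMIs, interval 1.66 to 2.69), and 229 UMIs (5.68 CPM, 4.96 to 6.46) were found in Maf LSEC-KO. It was 2.67-fold higher in Maf LSEC-KO (2.03 to 3.54), and the log2 ratio went from 1.41 to 1.12 without the cluster led by stellate and lymphatic genes. Hey2 (chr10:30832359-30842801, minus strand), a related arterial repressor, had 8 control and 20 Maf LSEC-KO UMIs. Heyl (chr4:123233556-123249875, plus strand), a family member known from mural cells, had 2 and 21 UMIs. Both were at the edge of detection in LSECs of either library.

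**Figure D1:**
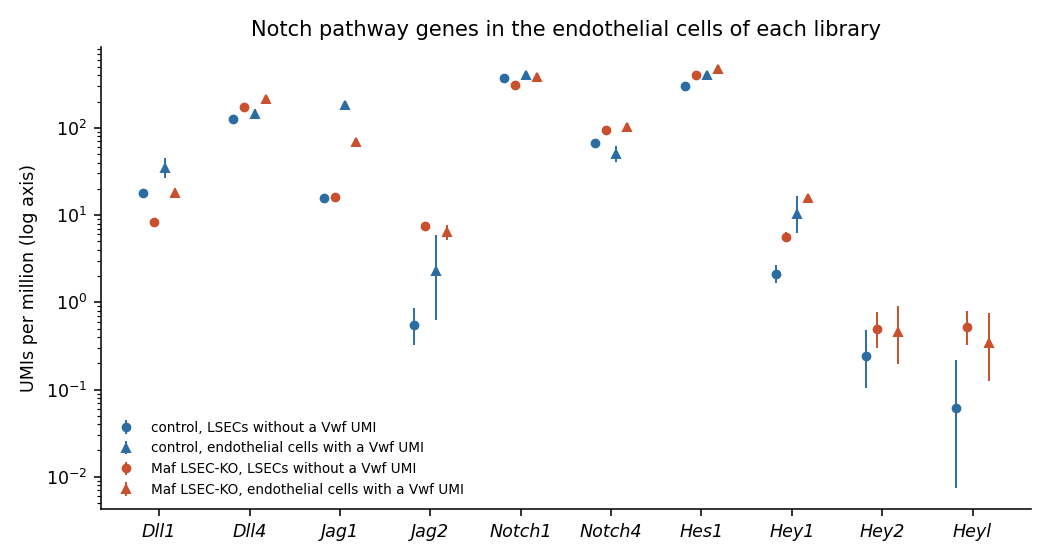
Level of the 10 Notch pathway genes in CPM on a log axis, for LSECs (circles) and Vwf-positive ECs (triangles) of the control (blue) and Maf LSEC-KO (orange) library; bars are exact Poisson 95% intervals, and points at 0 UMIs are not drawn. Jag2 is at 0.548 CPM in control and 7.44 CPM in Maf LSEC-KO LSECs, and Jag1 stands above its LSEC level in the Vwf-positive cells of both libraries.

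The rest of the pathway was read from fixed lists of 80 further genes, of which 61 had enough UMIs in LSECs. Among these, 10 were at least 2-fold higher in Maf LSEC-KO and 6 at least 2-fold lower, beside 14.9% and 5.59% of all genes, and the median log2 ratio was 0.05, against 0.16 over all genes. In the nuclear complex, 0 of 7 genes were called, in receptor cleavage 1 of 10 (Aph1c, lower), and of 14 inhibitors and corepressors 1 was higher (Nrarp) and 1 lower (Kyat1). Most of the machinery that cuts the receptor and carries the signal in the nucleus thus lay within 2-fold between the libraries. Of 4 genes of ligand endocytosis 1 was higher (Neurl1b). The calls with a level of at least 10 CPM were spread over the modifiers and the arterial and venous genes.

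Lfng, the Fringe glycosyltransferase that modifies Notch receptors and shifts their response towards Delta-like ligands, was at 42.2 CPM in control LSECs and 12.6 CPM in Maf LSEC-KO LSECs, 3.34-fold lower (3.01 to 3.70). Eogt, which adds a different sugar to the same extracellular repeats, was at 19.8 and 49.3 CPM, 2.48-fold higher in Maf LSEC-KO (2.27 to 2.72). Nrarp, a Notch target that limits the pathway by feedback, was at 33.0 and 91.3 CPM, 2.77-fold higher (2.59 to 2.96). These 3 modifiers differed by larger factors than Dll4, Notch1, Notch4 or Hes1. Bhlhe40, a repressor of the wider Hes superfamily, was at 31.6 and 73.9 CPM.

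Of 13 arterial genes with enough UMIs, which include Dll4, Jag1 and Hey1, 5 were called higher (Hey1, Gja5, Cxcr4, Sema3g and Fbln2) and 0 lower, beside 14.9% and 5.59% of all genes. Cxcr4, the chemokine receptor of tip and arterial cells, was at 1.13 CPM in control and 12.3 CPM in Maf LSEC-KO LSECs, and Fbln2, an extracellular matrix gene, at 5.05 and 11.2 CPM. Of 7 venous genes 2 were higher (Aplnr and Vcam1) and 3 lower (Ackr1, Nrp2 and Selp), beside the same shares of all genes. Aplnr reached the minimum through the Maf LSEC-KO library alone and Selp, with 36 Maf LSEC-KO UMIs, through control alone. Aplnr, the apelin receptor, was at 0.0609 CPM in control LSECs from 2 UMIs, whereas 1945 UMIs gave 48.2 CPM in Maf LSEC-KO, a ratio of 792 with a counting interval of 219 to 6546. Vcam1, an adhesion molecule for leukocytes, was at 110 and 247 CPM. Ackr1, a chemokine-binding protein of venules, was at 41.0 and 16.6 CPM, and Nrp2, a semaphorin and VEGF co-receptor, at 545 and 264 CPM.

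**Figure D2:**
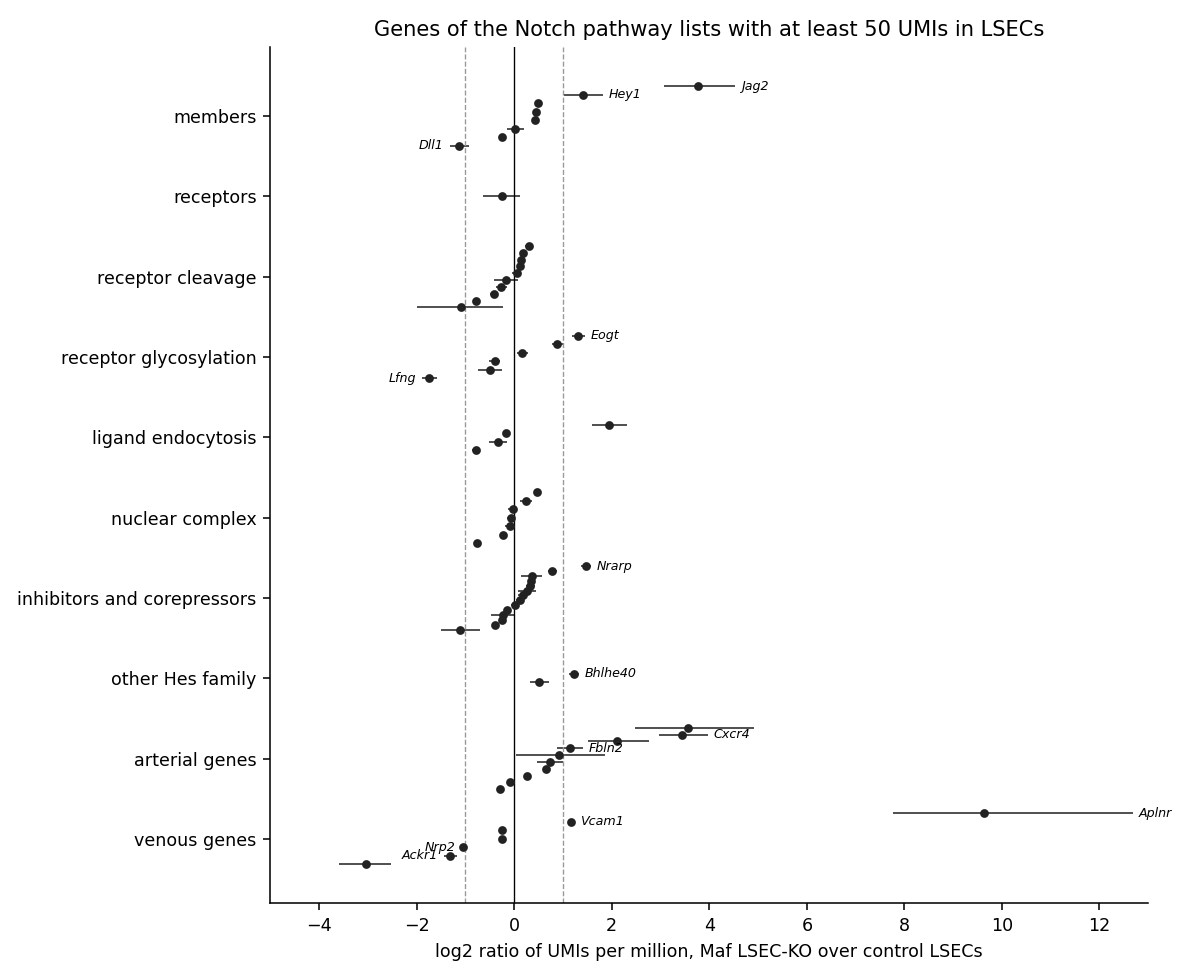
Genes of each pathway list with at least 50 UMIs in LSECs (points, in rows by list), placed on the horizontal axis by the log2 of their CPM in Maf LSEC-KO over that in control; bars are 95% counting intervals, dashed lines mark 2-fold, and names are given for called members and for pathway genes called at 10 CPM or more. Most genes of the receptor cleavage and nuclear complex lists lie within 2-fold, and Aplnr and Jag2 lie farthest to the right.

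Sinusoids run from the portal tract to the central vein, and the named zonal markers separate their ends: Wnt2 and Rspo3, a Wnt ligand and a Wnt enhancer, mark central ECs, and Gja5, a gap junction gene, marks arterial and portal ECs. In control ECs, 3 of the 6 members with enough UMIs (Dll4, Jag1 and Hes1) were at least 2-fold higher in the 41 Gja5-positive cells than in the 2628 Wnt2- or Rspo3-positive cells, where 8.59% of all genes tested were, and 0 were lower, where 12.5% were. In Maf LSEC-KO ECs, Dll4, Jag1 and Hey1 were higher in the 161 Gja5-positive than in the 981 Wnt2- or Rspo3-positive cells, 3 of 8 members where 2.82% of all genes were, and 0 were lower, where 8.82% were. Vwf UMIs were present in 73.2% of the control and 78.3% of the Maf LSEC-KO Gja5-positive cells. Among Wnt2- or Rspo3-positive cells they were present in 3.4% in control but 31.3% in Maf LSEC-KO. The comparison therefore sets mostly Vwf-positive against mostly Vwf-negative cells, and the classes are not alike in make-up between the libraries.

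Jag1 showed the widest gap. It was at 444 CPM in Gja5-positive and 11.5 CPM in Wnt2- or Rspo3-positive control ECs (38.6-fold, 32.1 to 46.3), and at 187 and 20.3 CPM in Maf LSEC-KO ECs (9.18-fold, 7.94 to 10.6). Dll4 was at 241 and 103 CPM in control (2.35-fold, 1.93 to 2.83) and at 318 and 107 CPM in Maf LSEC-KO (2.98-fold, 2.73 to 3.25). The Wnt2- or Rspo3-positive cells of both libraries were therefore at nearly the same Dll4 level. Hes1 was at 594 and 254 CPM in control (2.34-fold, 2.07 to 2.64) but at 517 and 324 CPM in Maf LSEC-KO (1.60-fold, 1.5 to 1.70). Among Maf LSEC-KO cells without a Vwf UMI the Hes1 log2 ratio was −0.22, the opposite direction. Hey1 was at 20.9 CPM (10 UMIs) and 1.14 CPM (28 UMIs) in control, under the minimum of 50, and at 40.4 CPM (95 UMIs) and 3.42 CPM (56 UMIs) in Maf LSEC-KO, 11.8-fold higher in Gja5-positive cells (8.40 to 16.7). Notch1 was at 420 and 369 CPM in control and 488 and 313 CPM in Maf LSEC-KO. Notch4 was at 67.0 and 65.8 CPM in control and 117 and 81.6 CPM in Maf LSEC-KO, and its control log2 ratio went from 0.03 to 1.60 after thinning.

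A finer order was built within each library by ranking LSECs on 6 central and 5 portal landmark genes, none of them a member, and cutting the ranks into 4 classes. The classes held 1018, 1018, 1018 and 1019 control cells and, because many Maf LSEC-KO cells tied, 795, 795, 220 and 1370 Maf LSEC-KO cells. The most portal Maf LSEC-KO class held 0 Wnt2 and 0 Rspo3 UMIs, where that of control held 72 and 12. Its median was 10671 UMIs per cell, beside 13585 in the most central Maf LSEC-KO class, and in control the 2 medians were 5870 and 8623.5. The end classes of the libraries are therefore not alike. In control LSECs Dll4, Jag1 and Hes1 were at least 2-fold higher in the most portal than in the most central class, 3 of 6 members where 1.96% of all genes tested were, and Dll1 was lower, 1 of 6 where 2.59% were. In Maf LSEC-KO LSECs 0 of 8 members were higher, where 0.711% of genes were, and Jag2 alone was lower, where 1.88% were.

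Dll4 stood at 56.0, 108, 159 and 202 CPM from the most central to the most portal control class, 3.60-fold from end to end (3.23 to 4.02). In Maf LSEC-KO it stood at 125, 159, 207 and 221 CPM, 1.77-fold from end to end (1.65 to 1.89). Both series climbed at each step, although the intervals of the last 2 Maf LSEC-KO classes overlapped, and the Maf LSEC-KO series began at a higher central level. Hes1 followed the same order, at 162, 257, 355 and 467 CPM in control (2.89-fold, 2.70 to 3.08) and at 334, 383, 411 and 485 CPM in Maf LSEC-KO (1.45-fold, 1.39 to 1.51). The log2 slope from end to end was smaller in Maf LSEC-KO by 1.03 for Dll4 and by 0.99 for Hes1, a difference between 2 libraries that was not tested.

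Hey1 was at 0.251 CPM (2 UMIs) in the most central and 6.25 CPM (40 UMIs) in the most portal control class, with the 2 classes between them at 0.533 and 2.54 CPM. In Maf LSEC-KO it was at 6.06, 4.48, 5.88 and 6.65 CPM, with overlapping intervals, and the log2 ratio of the portal to the central end went from 0.13 to −0.86 after thinning. Summed hepatic stellate markers in these Maf LSEC-KO classes were at 240, 270, 107 and 73.7 CPM. The cluster led by stellate and lymphatic genes was not left out here, and its part in these Hey1 levels was not tested. Jag1 was at 11.9, 5.96, 19.3 and 29.4 CPM in control and 11.2, 14.1, 19.6 and 20.6 CPM in Maf LSEC-KO, so both libraries had their highest level at the portal end. Dll1 ran the other way. It was at 28.0, 16.5, 14.03 and 13.8 CPM in control, 2.03-fold higher at the central end (1.58 to 2.63), and at 10.0, 8.51, 3.43 and 8.16 CPM in Maf LSEC-KO. Without cycling cells the control difference fell short of 2-fold. Jag2 was sparse in every control class and at 11.3, 6.72, 7.59 and 5.15 CPM in Maf LSEC-KO, 2.20-fold higher at the central end (1.61 to 3.03). Notch1 and Notch4 differed by less than 1.25-fold between the end classes of either library.

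**Figure D3:**
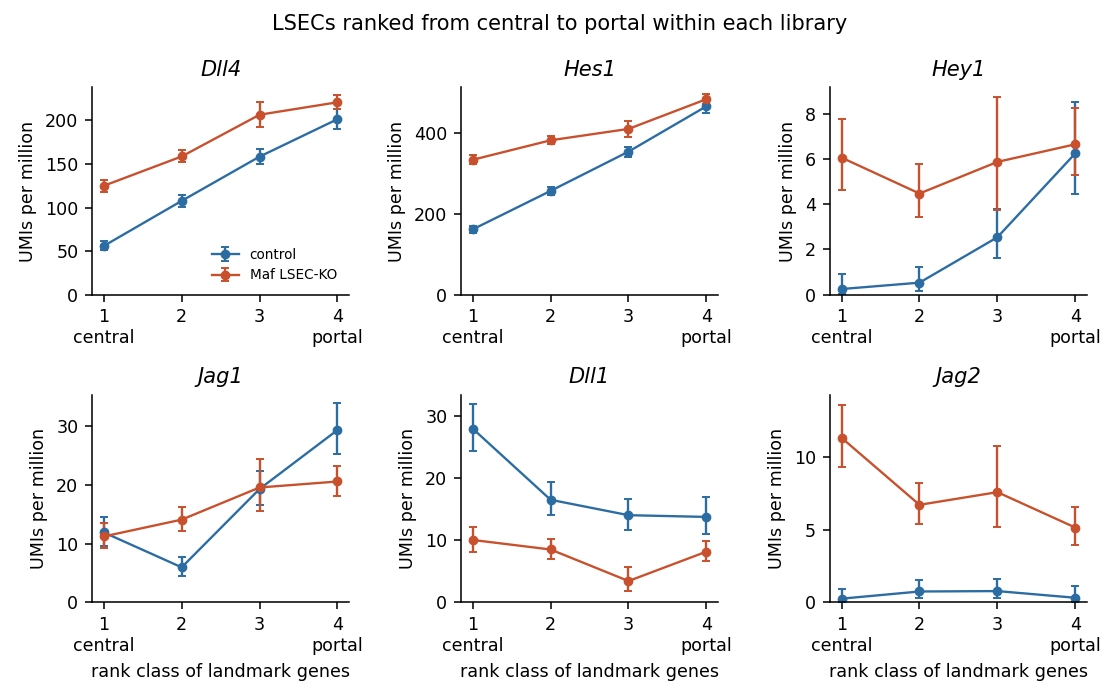
Level of Dll4, Hes1, Hey1, Jag1, Dll1 and Jag2 in CPM (vertical axes from 0) in the 4 rank classes of LSECs from central (1) to portal (4), for control (blue) and Maf LSEC-KO (orange); bars are exact Poisson 95% intervals. Dll4 and Hes1 climb in both libraries, Hey1 climbs in control while its Maf LSEC-KO intervals overlap, and Dll1 is highest in the central control class at 28.0 CPM.

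For Dll4, Hes1, Hey1 and Dll1 the libraries lay farther apart at the central than at the portal end, a contrast of gaps that was not tested. In the most central class Dll4 was 2.23-fold higher in Maf LSEC-KO (2.003 to 2.49), Hes1 2.07-fold (1.94 to 2.21), Jag2 45.2-fold (12.2 to 378, against 2 control UMIs) and Hey1 24.2-fold (6.41 to 204, against 2 control UMIs). These 4 members were called higher, as were 13.3% of all genes, but Jag2 and Hey1 reached 50 UMIs through the Maf LSEC-KO library alone, and of the 4 only Dll4 and Hes1 reached it in control. Dll1 was 2.79-fold lower (2.19 to 3.56), where 5.13% were called lower. Dcn, a stellate cell gene, was at 5.27 CPM in the central control class and 117 CPM in the central Maf LSEC-KO class. The summed hepatic stellate markers, Dcn among them, lay less far apart at 129 and 240 CPM. The part of stellate RNA in these values was not tested. In the most portal class Jag2 alone was called higher, 1 of 8 where 10.8% of genes were, and 0 were called lower, where 4.36% were. There Dll4 was 1.10-fold higher (1.03 to 1.17), and Hes1 was at 485 CPM in Maf LSEC-KO against 467 CPM in control (1.04-fold, 0.99 to 1.08).

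The rank classes did not hold cells with like landmark levels in both libraries, however. In the most central class Wnt2 was at 613 CPM in control and 102 CPM in Maf LSEC-KO, and Rspo3 at 278 and 28.5 CPM. Cells with a Wnt2 or Rspo3 UMI made up 61.9% of the control LSECs but 20.7% of those from Maf LSEC-KO; thinned, the shares were 40.7% and 7.28%. When the libraries were compared only among LSECs with such a UMI, Dll4 was at 104 CPM in control and 112 CPM in Maf LSEC-KO, 1.08-fold apart (1.004 to 1.15). Hes1 was then at 255 and 312 CPM (1.22-fold, 1.17 to 1.27). Among LSECs with no zonal marker UMI, Dll4 was at 186 and 197 CPM (1.06-fold, 1.001 to 1.12) and Hes1 at 420 and 443 CPM (1.06-fold, 1.02 to 1.09). Within either class of cells the Dll4 ratio was thus nearer to 1 than over all LSECs, where it was 1.37. For Hes1, at 1.34 over all LSECs, this held as measured, but with thinned cells the log2 ratio among Wnt2- or Rspo3-positive LSECs was 0.48, the same as over all LSECs. The share of cells in each class differed between the libraries as given above. These classes were not matched in landmark level either. Among Wnt2- or Rspo3-positive LSECs, Wnt2 was at 394 CPM in control and 127 CPM in Maf LSEC-KO, and Rspo3 at 102 and 38.1 CPM. The part of these differences in the Dll4 and Hes1 ratios was not tested.

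Inside these classes Jag2 was higher and Dll1 lower in Maf LSEC-KO by factors that depended on depth in the first of them. Jag2 was 14.1-fold higher in Maf LSEC-KO among Wnt2- or Rspo3-positive LSECs (7.85 to 27.6) and 13.4-fold among LSECs without a zonal marker (5.65 to 41.7). Dll1 was at 18.6 and 10.1 CPM in the first class (1.85-fold lower, 1.503 to 2.30) and at 16.5 and 7.33 CPM in the other (2.25-fold lower, 1.81 to 2.79). When cells were thinned before the classes were made, the Wnt2- or Rspo3-positive log2 ratios went from 3.82 to 2.91 for Jag2 and from −0.89 to −0.13 for Dll1, and in the class without a zonal marker Dll1 stood at −1.15. Hey1 was at 1.06 and 2.90 CPM in the first and at 4.84 and 6.35 CPM in the other. Jag1 was at 27.6 CPM in control and 16.5 CPM in Maf LSEC-KO LSECs without a zonal marker, 1.67-fold lower (1.43 to 1.95), but after thinning its log2 ratio was 0.02. In all, 2 of 8 members were called higher among Wnt2- or Rspo3-positive LSECs (12.6% of genes) and 0 lower (5.29%), and 1 was called higher (13.9%) and 1 lower (4.99%) among those without a zonal marker.

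Since 21.4% of the Maf LSEC-KO LSECs still held a Maf UMI, members were also compared inside that library, where preparation and sequencing are shared. Only Jag2 was at least 2-fold higher in the 2556 LSECs without a Maf UMI than in the 349 with at least 2, 1 of 8 members where 1.98% of genes were, and 0 were lower, where 3.73% were. Jag2 was at 8.46 CPM (258 UMIs) without Maf UMIs and 3.84 CPM (17 UMIs) with at least 2, a 2.20-fold difference (1.35 to 3.84). Dll1 was at 7.61 CPM without Maf UMIs, 11.96 CPM with at least 2 and 19.0 CPM (43 UMIs, 13.7 to 25.6) in the 213 cells with at least 5, beside 18.0 CPM in control LSECs. Notch1 was at 307, 373 and 445 CPM in the same 3 classes, beside 373 CPM in control. Dll4 was at 178, 159 and 153 CPM and Hes1 at 412, 371 and 343 CPM, beside 127 and 302 CPM in control. For Jag2, Dll1, Dll4, Notch1 and Hes1 the cells with most Maf lay on the control side of the cells without Maf, and Notch1 in cells with at least 5 Maf UMIs lay above the control level.

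The cells that kept Maf differed in other ways too. Those with at least 2 Maf UMIs included 24.1% cycling cells against 32.5% of the cells without a Maf UMI. Their summed hepatic stellate markers were at 909 CPM against 62.2 CPM, and 23.5% against 0.157% lay in clusters with few UMIs. The central markers were higher with Maf. With 0, at least 2 and at least 5 Maf UMIs, Wnt2 was at 27.0, 98.9 and 168 CPM and Rspo3 at 7.67, 29.35 and 33.1 CPM. Dll4, Hes1 and Dll1 also differed between the central and portal classes, as given above. Without cycling cells the Jag2 log2 ratio went from 1.14 to 0.84. The part of these differences in the levels was not tested.

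**Figure D4:**
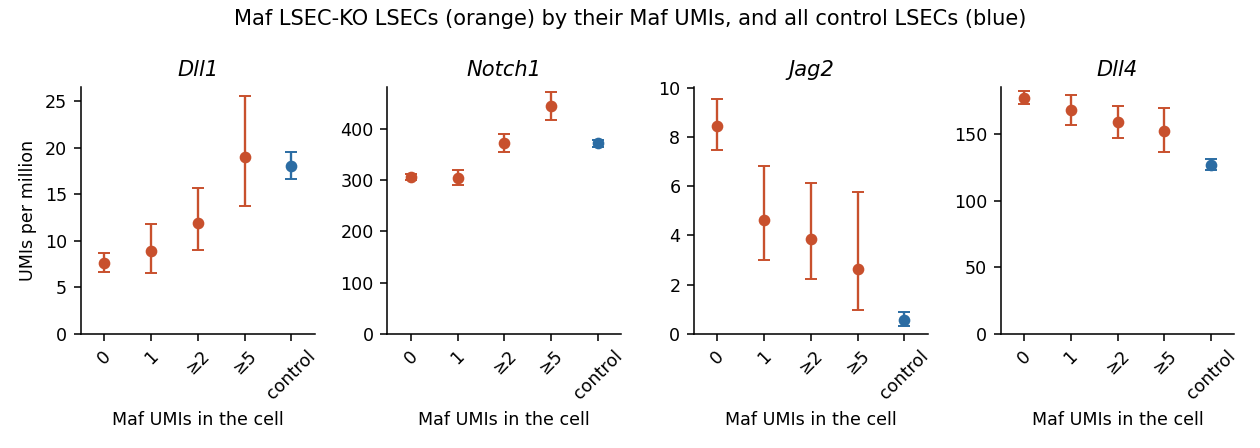
Level of Dll1, Notch1, Jag2 and Dll4 in CPM (vertical axes from 0) in Maf LSEC-KO LSECs with 0, 1, at least 2 and at least 5 Maf UMIs (orange; the last class is part of the one before) and in all control LSECs (blue); bars are exact Poisson 95% intervals. Dll1 is at 7.61 CPM with 0 Maf UMIs and 19.0 CPM with at least 5, and Jag2 is at 8.46 and 2.65 CPM.

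ECs of both libraries were also clustered together after the members and the other pathway lists had been removed, which gave 10 clusters. Arterial and venous genes that are not members, such as Gja5 and Efnb2, were kept in and could shape the clusters. Most were filled by 1 library, so a cluster cannot be told apart from its library there. Clusters 1 and 4, led by LSEC genes such as Maf, Dnase1l3 and Stab2, held 1616 and 942 control cells but 62 and 46 Maf LSEC-KO cells. Clusters 2 (led by Ccl5 and Ly6c1) and 3 (led by Astn1, with Egr1 and Esm1) held 1651 and 1534 Maf LSEC-KO cells but 11 and 4 control cells. Dll4 was at 170 CPM in cluster 2 and 254 CPM in cluster 3 of the Maf LSEC-KO library, against 126 and 125 CPM in control clusters 1 and 4. Hes1 was at 376 and 549 CPM against 274 and 297 CPM. The 62 Maf LSEC-KO cells of cluster 1, where Maf was at 2686 CPM, had Dll4 at 112 CPM (88.8 to 140), Hes1 at 288 CPM (249 to 331) and Dll1 at 24.5 CPM (14.2 to 39.2), and each interval included the control level of that cluster, which was 14.8 CPM for Dll1.

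Clusters 8 and 9 held cells of both libraries. Cluster 8, led by Atp13a3, Nrg1 and Gja5, had the highest Jag1 of the clusters with at least 50 cells of a library, at 345 CPM in 125 control and 299 CPM in 107 Maf LSEC-KO cells, and Dll4 at 274 and 269 CPM. Hes1 there was at 700 CPM in control and 572 CPM in Maf LSEC-KO. Cluster 9, led by Rspo3 with Selp, Vwf and Wnt9b, had the lowest Dll4 of these clusters, at 22.5 CPM in 55 control and 34.1 CPM in 142 Maf LSEC-KO cells, whereas Dll1 was at 54.4 and 45.8 CPM. Hes1 in cluster 9 was at 95.7 CPM in control (interval 71.2 to 126), and its Maf LSEC-KO level was 251 CPM (228 to 276). Dll4, Dll1 and Jag1 in these 2 vessel clusters had overlapping intervals between the libraries, and Hes1 did not. Cells with a Vwf UMI made up 50.4% of the control and 88.8% of the Maf LSEC-KO cells of cluster 8. In cluster 9 the shares were 80% and 93.0%. The part of this make-up in the levels was not tested.

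Cluster 10 stood apart. It held 110 Maf LSEC-KO and 5 control cells and was led by Dcn, C3 and Ccl21a, stellate and lymphatic genes among them. In its Maf LSEC-KO cells Jag2 was at 50.5 CPM (64 UMIs), Hey1 at 55.3 CPM (70 UMIs), Heyl at 15.8 CPM (20 UMIs), Hey2 at 10.3 CPM (13 UMIs) and Notch3 at 22.1 CPM (28 UMIs). Dcn was at 3212 CPM in the same cells and the lymphatic marker Mmrn1 at 461 CPM. Its 92 LSECs supplied 76.2% of the Heyl UMIs of all Maf LSEC-KO LSECs, 40% of the Hey2, 21.4% of the Hey1 and 14.3% of the Jag2 UMIs. The Heyl signal of the Maf LSEC-KO LSECs therefore rested mostly on cells with markers of other cell types, and those of Jag2 and Hey1 did not.

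**Figure D5:**
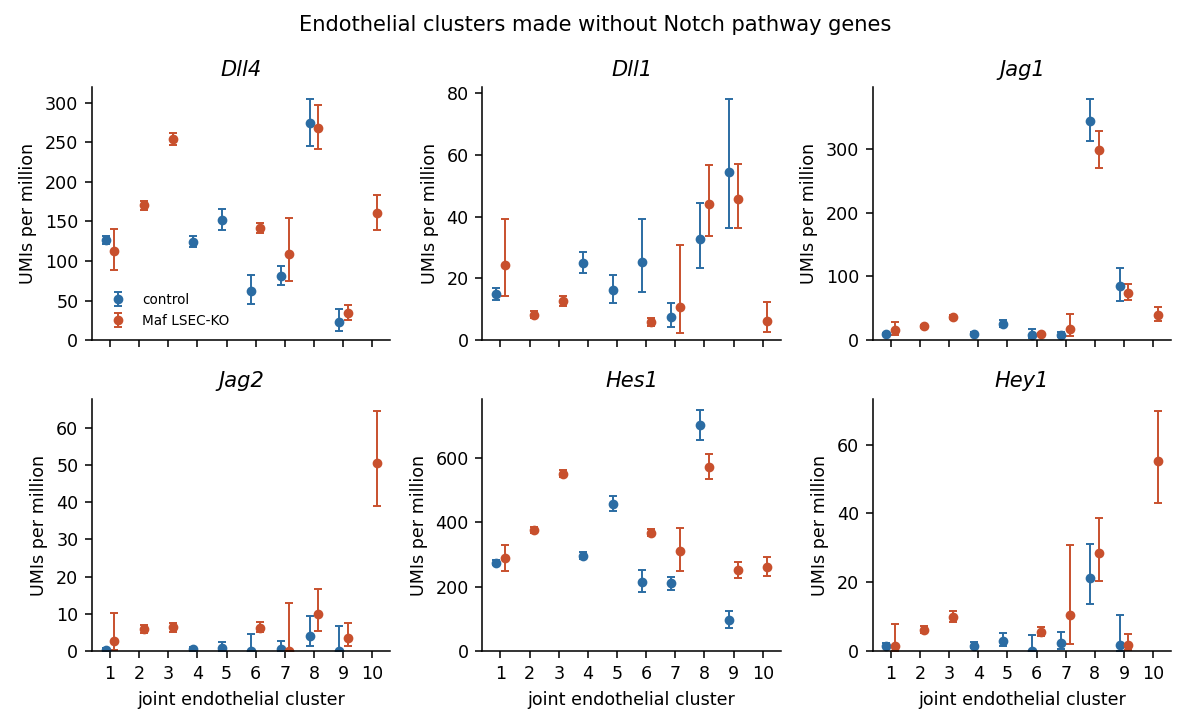
Level of Dll4, Dll1, Jag1, Jag2, Hes1 and Hey1 in CPM (vertical axes from 0) in 10 joint EC clusters, for each library (control blue, Maf LSEC-KO orange) with at least 50 cells in the cluster; bars are exact Poisson 95% intervals. Jag1 peaks in cluster 8, Dll4 is lowest in cluster 9, and Jag2 and Hey1 are highest in cluster 10.

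Across the 15 combinations of cluster and library with at least 50 cells, the genes whose log2(CPM + 1) followed Dll4 most closely among 11253 genes were Efna1 (Pearson r = 0.955), Efnb2 (r = 0.955) and Ldb2 (r = 0.934). Efnb2, the arterial ephrin ligand, was at 46.4 CPM in the most central and 247 CPM in the most portal control class, and at 131 and 270 CPM in Maf LSEC-KO. For Notch1 the closest were Zbtb7a (r = 0.873), Arl5b (r = 0.871) and Kdsr (r = 0.840), and for Hes1 they were Fiz1 (r = 0.942), AW011738 (r = 0.941) and Efna1 (r = 0.933). The 15 groups share 2 libraries and their depth, Efnb2 was not removed before clustering, and these correlations are descriptions only. The modifiers were zoned as well. Lfng was at 82.7 CPM in the most central and 11.3 CPM in the most portal control class, and at 24.9 and 6.34 CPM in Maf LSEC-KO, while Nrarp was at 19.6 and 51.9 CPM in control and at 90.4 and 97.0 CPM in Maf LSEC-KO.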

How the data were processed

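The authors aligned the reads of 2 10x Genomics 3′ libraries to mm10 with Cell Ranger 6.0.2 and analysed them with Seurat 5.0.1. They deposited raw UMI counts per gene and barcode for each library. A barcode was retained from 1500 UMIs and 750 genes upwards, which left 4961 control and 5423 Maf LSEC-KO barcodes. The automatic threshold of Scrublet in scanpy 1.11.5 marked 0 doublets, so the top-scoring 225 and 308 barcodes, the shares expected from loading (4.53% and 5.67%), were removed. Each library was clustered in Seurat 5.3.0 (R 4.3.3) after log-normalisation at resolution 0.3. The joint clustering of both libraries used sctransform 0.4.2 at the same resolution. A cluster was taken as endothelial if at least 50% of cells expressed Pecam1, likewise for at least 7 of 14 further endothelial genes. None of Adgre1, Clec4f, Ptprc, Cd52, Acta1 and Arg1 could be present in over 50% of its cells. Clusters led by stellate, haemoglobin or hepatocyte genes could pass this rule. Cells with a Vwf UMI were removed to give LSECs, following the study. UMIs were summed over cells and divided by the sum over all genes other than mitochondrial and ribosomal protein genes (CPM). CPM carry exact Poisson intervals, shares exact Clopper-Pearson intervals and ratios exact conditional intervals from the binomial distribution (scipy 1.17.1), all at 95%. A gene was called with at least 2-fold difference and at least 50 UMIs over both groups, and no p-value was computed. Landmark scores were the portal part of the summed, maximum-scaled landmark genes of a cell. Alternatives covered scaling (UMIs of all genes, median of ratios, TMM from edgeR 4.0.16), thinning, doublets, cell filters, Maf and marker thresholds and the fold. The comparisons by rank class, within zonal marker classes and without single clusters were added after seeing the data. The calling procedure was tested on simulated data.

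Named genes were the members, Notch2, Notch3, Rbpj, class-defining genes, the up to 20 pathway genes called with at least 10 CPM in either library (10 met this), and the 3 genes most correlated with the most abundant ligand, receptor and target. Named beyond that rule, after their values were seen, were Efnb2, Egr1, Fos, Aph1c, Kyat1, Neurl1b, Sema3g and Selp. The members and lists were chosen with earlier results of these data known. Gene positions are from GENCODE M21 (GRCm38), promoters from RefSeq. In 3′ libraries levels are not compared between genes, and overlapping or antisense genes were not separated here.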

Additional observations from a re-analysis of the deposited data

Results flagged for a closer look

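Barcodes under the minimum of UMIs or genes (703 in control, 1668 in Maf LSEC-KO) enter no comparison above, and 2 members differed there between the libraries beyond counting error. Dll4 was at 78.3 CPM (34 UMIs) in control and 150 CPM (147 UMIs) in Maf LSEC-KO, a log2 ratio of 0.94 (0.40 to 1.53). Notch4 was at 36.8 CPM (16 UMIs) and 88.0 CPM (86 UMIs), a log2 ratio of 1.26 (0.48 to 2.13). Both lie in the direction of the LSECs, where the log2 ratios were 0.45 and 0.49. These barcodes hold few UMIs each and were not assigned to cell types.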

How the results depend on the processing

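No paired analysis was possible because each group is 1 library. Over 14 settings, 80 of 112 member values of the comparison of Maf LSEC-KO with control LSECs moved by less than their counting interval, 32 moved by more and 0 reversed a call. At 1.5-fold in place of 2-fold, the members called numbered 1 lower (Dll1) without against with Maf UMIs, 6 higher by zonal markers in Maf LSEC-KO, 2 higher from central to portal in Maf LSEC-KO, and, for Maf LSEC-KO against control, 1 lower in the most portal class, 1 lower among Wnt2- or Rspo3-positive LSECs and 2 lower among those with no zonal marker. With Vwf-positive cells kept, 0 members were lower in Maf LSEC-KO. With cycling cells left out, 0 were lower in Maf LSEC-KO, 0 higher without Maf UMIs, 0 lower from central to portal in control and 1 higher (Jag1) in Maf LSEC-KO, and, for Maf LSEC-KO against control, 0 higher in the most portal class, 0 higher among Wnt2- or Rspo3-positive LSECs and 0 lower among those with no zonal marker. With at least 5 Maf UMIs as the Maf-retaining class, 1 (Dll1) was lower. After thinning, 1 was higher and 0 lower from central to portal in Maf LSEC-KO, and, for Maf LSEC-KO against control, 2 were higher in the most central class, 0 in the most portal class and 0 among Wnt2- or Rspo3-positive LSECs. Leaving out cells or thinning also takes some sparse members below 50 UMIs, so these counts rest on fewer members. Ranges of the log2 ratio were 3.48 to 4.59 for Jag2, 1.12 to 1.77 for Hey1, −1.31 to −0.75 for Dll1, 0.24 to 0.54 for Hes1 and −0.43 to −0.12 for Notch1.

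Depth limits Hey2, Heyl and Notch3 in LSECs and Hey1 and Jag2 in control subclasses, where 1 to 10 UMIs carry a value. One pool per group means that differences between animals, preparations and genotypes cannot be told apart.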

Other observations

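Outside the endothelium, the 37 cholangiocyte-like cells of the Maf LSEC-KO library (median 14141 UMIs) held Jag1 at 189 CPM (99 UMIs, interval 153 to 230), with a Jag1 UMI in 73.0% of the cells. The B cell-like cells of that library, taken as a measure of free RNA, held it at 9.41 CPM (2 UMIs, 1.14 to 34.0) and in 5.13% of cells (median 5977 UMIs). Hes1 was at 450 CPM (394 to 511) in the cholangiocyte-like and 113 CPM (72.4 to 168) in the B cell-like cells.

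The level of Hes1 in macrophage-like cells was 213 CPM (interval 190 to 237) in the control library. The Maf LSEC-KO library had 201 CPM (183 to 220) in the same class. In control this interval overlapped that of the B cell-like cells, at 183 CPM (144 to 229), and in Maf LSEC-KO it did not. Hey1 had 14 UMIs (9.22 CPM, 5.04 to 15.5) in the control macrophage-like cells and 21 UMIs (9.08 CPM, 5.62 to 13.9) in those of Maf LSEC-KO, with a UMI in 5.02% and 4.87% of cells. In B cell-like cells Hey1 had 1 and 0 UMIs, with upper limits of 13.2 and 17.4 CPM, so a difference from the macrophage-like cells was not detectable at this depth.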
